A study of Mus musculus with 12 samples.

Results

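The class IIa histone deacetylases Hdac4, Hdac5, Hdac7 and Hdac9, the MEF2 transcription factors Mef2a, Mef2c and Mef2d, and the serum response factor Srf were followed in RNA from mouse hippocampus. They were taken by gene name, as every locus whose name, split at commas, is 1 of these 8 genes and whose class is not intronic. This gave 9 of 22306 loci, 8 for the genes themselves and 1 unnamed transcript antisense to Mef2c. The C57BL/6 mice had received 10 µg of an siRNA through the nose 3 days before RNA was taken. The 12 libraries form 3 groups of 4. They are siHdac4 (siRNA against Hdac4), siBdnf (siRNA against Bdnf, brain-derived neurotrophic factor) and siScramble (a scrambled siRNA), so all of the animals had been given an siRNA. Age, sex and genotype beyond the strain are not given in the sources used here, nor are the siRNA sequences. The labels do not say that each library is a separate animal, so p-values measure the spread between libraries, which may be partly technical.

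Class IIa deacetylases have little enzymatic activity of their own and act as signal-dependent repressors. In the nucleus they bind the MADS domain region of MEF2 factors and hold corepressors with HDAC3 at MEF2 target genes. Calcium-dependent and other kinases phosphorylate them, 14-3-3 proteins then bind, and the complex leaves the nucleus, while phosphatases such as calcineurin act in the opposite direction. MEF2 factors control activity-dependent genes and synapse number in neurons, and SRF, another MADS-box factor, drives immediate early and actin cytoskeleton genes with its own cofactors.

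Levels are FPKM as deposited, that is, fragments scaled to transcript length and to the mapped fragments of the library. Read totals are not in the tables, so the depth behind each value is unknown. The same 4 siScramble columns stand in both deposited tables. Of 22306 loci, 18339 were tested, and each of the 9 loci followed here was among them. Set against the tissue label, all 9 excitatory hippocampal markers were detected in every library, and Neurod6, a pyramidal neuron factor, had 249 to 594 FPKM. Libraries 1 and 3 of siScramble stood apart. Their summed level of 9 choroid plexus markers was 857 and 2128 FPKM, against 14.8 to 91.3 FPKM in the other 10 libraries. In bulk RNA, fewer cells of a type and less RNA per cell cannot be told apart.

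MEF2 factors are close paralogs, and the coding sequence is most alike at its start, which encodes the MADS box that contacts DNA. The first 171 coding bases of the longest coding transcript of each gene (GENCODE, GRCm38) are shown because they bear on whether reads can be assigned to a single MEF2 gene. Capitals mark the 48 positions at which the 3 genes differ.
Mef2a: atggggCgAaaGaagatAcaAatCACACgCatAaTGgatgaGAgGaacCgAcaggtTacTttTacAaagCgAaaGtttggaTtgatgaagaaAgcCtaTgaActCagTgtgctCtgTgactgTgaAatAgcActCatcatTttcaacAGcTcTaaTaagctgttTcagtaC
Mef2c: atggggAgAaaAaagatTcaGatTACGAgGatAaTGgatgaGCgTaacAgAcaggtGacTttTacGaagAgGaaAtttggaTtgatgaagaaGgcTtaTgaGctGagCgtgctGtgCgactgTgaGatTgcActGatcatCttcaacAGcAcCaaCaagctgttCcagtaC
Mef2d: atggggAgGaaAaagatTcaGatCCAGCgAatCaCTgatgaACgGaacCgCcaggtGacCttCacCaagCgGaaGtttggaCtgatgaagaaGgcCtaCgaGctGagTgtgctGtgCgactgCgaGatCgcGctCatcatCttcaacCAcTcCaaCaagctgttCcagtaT
Over this stretch Mef2a and Mef2c were identical at 81.9% of positions, Mef2a and Mef2d at 77.8%, and Mef2c and Mef2d at 82.5%. Differences are spread along the whole stretch.

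Across the whole coding sequence, the longest run of bases shared by a pair of MEF2 genes was 28 bases, between Mef2c and Mef2d. Among the class IIa genes the longest was 36 bases, between Hdac5 and Hdac7. No pair within either family shared a 50-base window. The 36 bases are shown as the longest run at which class IIa genes read the same.
Hdac5 and Hdac7: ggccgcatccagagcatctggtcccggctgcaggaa
Read length is among the details not given in the sources used here, and so how many reads could fall wholly in such a run is unknown.

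The elements bound by SRF and by MEF2 were searched for in the 250 bases before the start of each gene (RefSeq, GRCm38.p6), where 14 windows matched the 8 genes. Both patterns read the same on either strand. The CArG box of SRF was in 1.47% of all 32851 windows and in 1 of the 14. The MEF2 site was in 2.92% of all windows and in 1 of the 14. The 2 windows that hold a match are shown for their elements, in capitals, and a match is a description of letters only.
Srf, chr17:46556163-46556412, minus strand: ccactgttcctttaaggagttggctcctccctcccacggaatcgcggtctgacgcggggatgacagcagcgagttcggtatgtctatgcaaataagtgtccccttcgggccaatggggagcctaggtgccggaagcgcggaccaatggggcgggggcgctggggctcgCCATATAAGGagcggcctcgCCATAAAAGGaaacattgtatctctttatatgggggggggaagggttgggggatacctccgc
Hdac5, chr11:102230173-102230422, minus strand: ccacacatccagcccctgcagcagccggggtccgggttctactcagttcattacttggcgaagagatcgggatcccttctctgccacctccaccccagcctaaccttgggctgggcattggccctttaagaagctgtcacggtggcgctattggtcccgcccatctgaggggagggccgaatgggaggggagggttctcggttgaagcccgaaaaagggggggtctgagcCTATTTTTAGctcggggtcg
Srf holds 2 CArG boxes, the farther one 82 bases before the start, and Hdac5 holds 1 MEF2 site 20 bases before it.

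The deposited intervals were compared with GENCODE gene models on GRCm38, for which the files name no build. Where a protein-coding locus had 1 namesake in GENCODE, 11221 of 11371 (98.7%) overlapped it. Hdac4 lies on chromosome 1 (91928608 to 92194071), Hdac5 on chromosome 11 (102194978 to 102230255), Mef2a on chromosome 7 (67231179 to 67373329), Mef2d on chromosome 3 (88141693 to 88172156) and Srf on chromosome 17 (46546839 to 46557608). These 5 intervals held at least 99.7% of the bases of the gene's longest coding transcript. Mef2c, on chromosome 13 (83524021 to 83670183), held 96.3%, and its antisense locus carries the same interval.

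The other 2 deacetylase loci are partial. The Hdac9 interval on chromosome 12 (34220599 to 34906866) is an overlapping locus that also carries the names 4921508M14Rik and Gm18025, touches 18 of 25 exons and holds 76.8% of the transcript's bases. The exons it lacks are at the 3′ end, and how much of the part encoding the deacetylase domain it holds was not determined. The Hdac7 interval on chromosome 15 (97784355 to 97796231) touches only 4 of 25 exons, all at the 3′ end, and holds 34.2% of the transcript's bases. It is also the interval given for Slc48a1, a haem transporter gene on the other strand with a mean of 17.2 FPKM. The libraries were directional, but strand-aware counting is not stated, so reads of Hdac7 and Slc48a1 cannot be told apart with certainty where they overlap.

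In level, 6 of the 8 genes were abundant and 2 were not, with Hdac7 and Hdac9 read at their partial loci. Mean levels over the 12 libraries were 55.7 FPKM for Hdac5, 53.6 for Hdac9, 50.8 for Mef2c, 44.8 for Mef2a, 40.1 for Hdac4, 32.6 for Mef2d, 5.27 for Srf and 1.11 for Hdac7. The ranges of neighbours in this order overlap from Hdac5 down to Mef2d. Mef2d was above Srf in all 12 libraries and Srf above Hdac7 in all 12, with no overlap. Hdac5 exceeded Hdac9 in 7 libraries and Hdac9 exceeded Mef2c in 7, while Mef2c exceeded Mef2a in 11. Hdac5 stood above 91.4% of the protein-coding loci tested, Srf above 26.6% and Hdac7 above 1.05%.

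**Figure D1:**
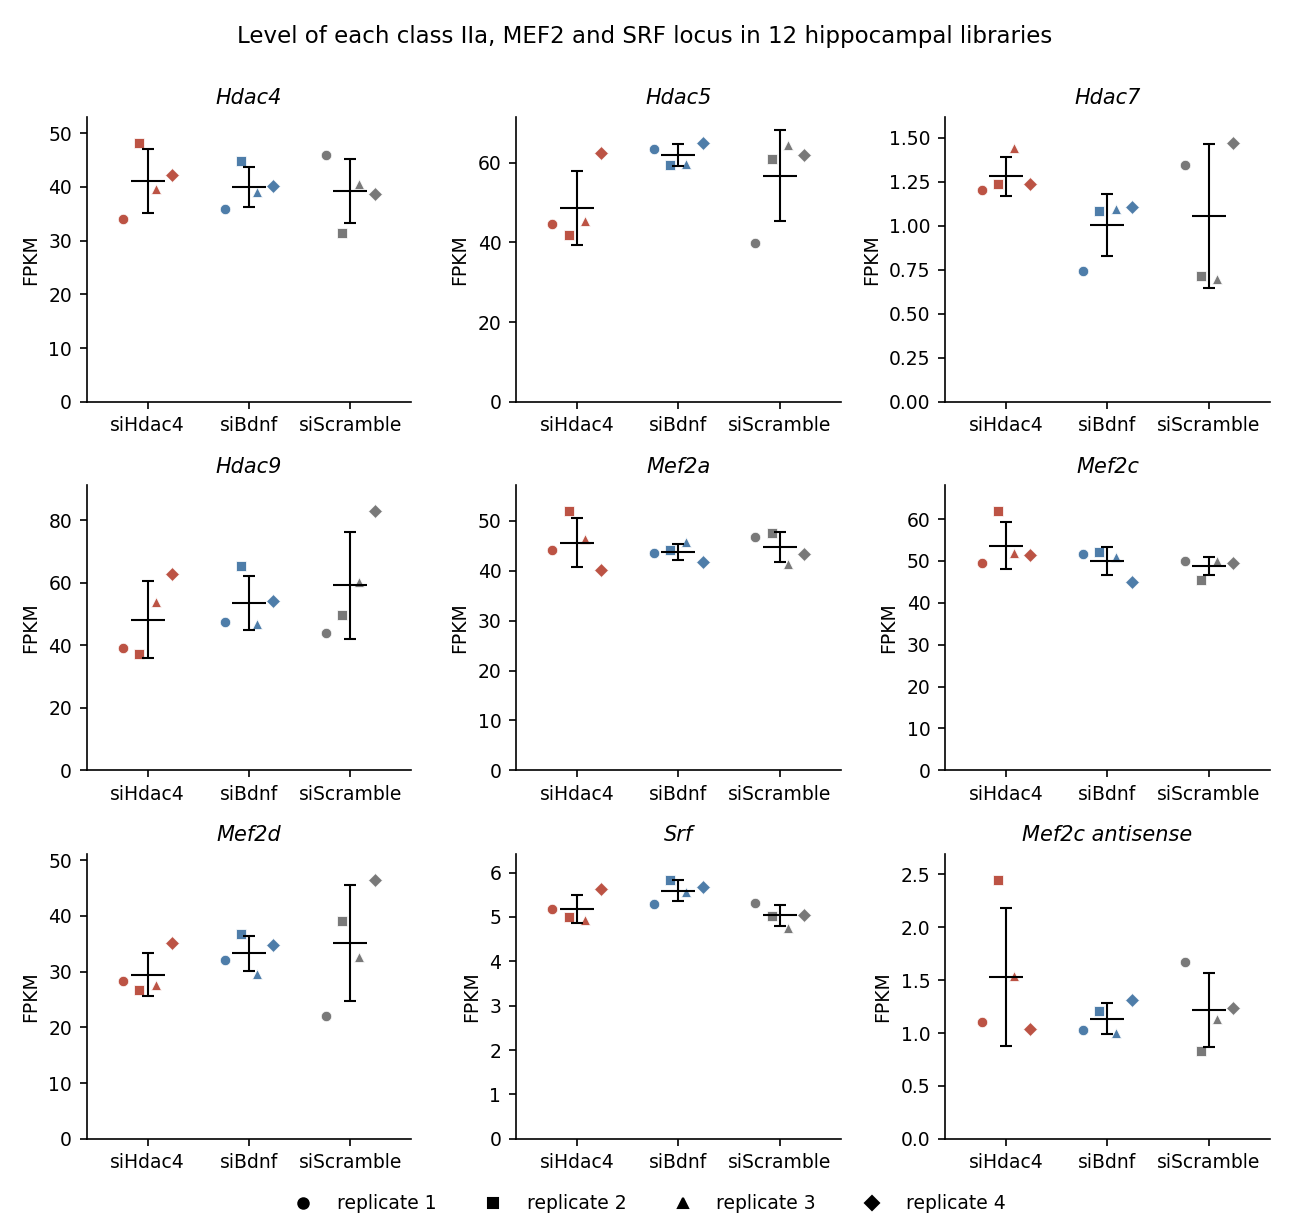
FPKM of the 9 loci, with 1 point per library, its shape the replicate number, and the mean with its SD (n = 4) in black for siHdac4, siBdnf and siScramble. The 3 groups overlap at every locus except Hdac7, where the siHdac4 libraries (1.20 to 1.44) lie above the siBdnf libraries (0.742 to 1.105).

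No locus of the 9 passed an adjusted p of 0.05 in limma in any of the 3 comparisons. In siHdac4 against siScramble 0 of 9 were called, where 0.00545% of all loci tested were, and 0 of 9 were under an unadjusted p of 0.05, where 9.95% of all loci were. In siBdnf against siScramble 0 of 9 were called, where 0% of all loci were, and 0 of 9 were under an unadjusted p of 0.05, where 8.62% were. In siHdac4 against siBdnf 0 of 9 were called, where 0.00545% were, and 1 of 9 (Hdac5) was under an unadjusted p of 0.05, where 15.6% were. The first and second comparisons share the 4 siScramble libraries.

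Groups without overlap were as rare. In siHdac4 against siScramble 0 of 9 loci had groups that did not overlap (3.53% of all loci), and in siBdnf against siScramble 0 of 9 (4.87% of all loci). In siHdac4 against siBdnf it was 1 of 9, Hdac7, where 13% of all loci did not overlap. The median difference of the 9 loci was 0.036 on the log2(FPKM + 1) scale in siHdac4 minus siScramble, −0.019 in siBdnf minus siScramble and 0.029 in siHdac4 minus siBdnf. Over all loci tested these medians were −0.0089, 0.021 and −0.028. The authors' deposited table gave an FDR of 1.00 for each of the 9 loci against siScramble, and its smallest p among them was 0.201, for Srf in siBdnf.

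**Figure D2:**
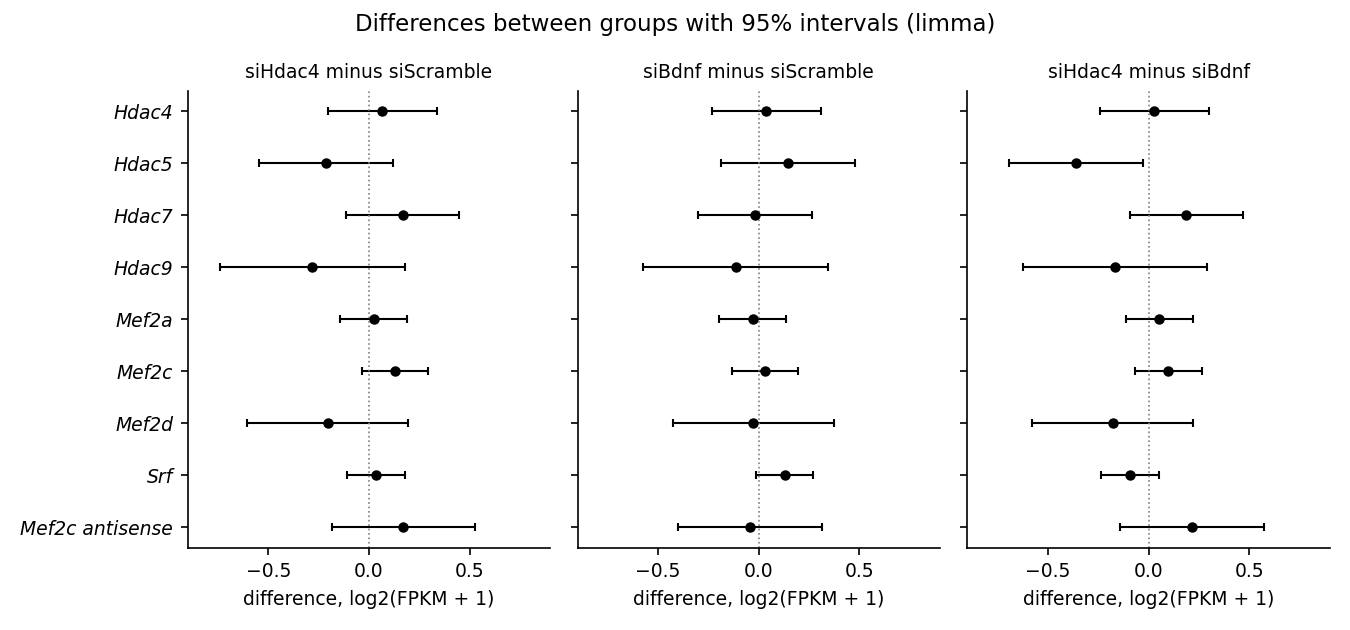
Difference of each locus on the log2(FPKM + 1) scale with its 95% interval from limma, for siHdac4 minus siScramble, siBdnf minus siScramble and siHdac4 minus siBdnf. Each interval includes 0 except that of Hdac5 in siHdac4 minus siBdnf, which runs from −0.69 to −0.027.

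Hdac4 is the transcript targeted in siHdac4 and checks the labels. It was at 34.0, 48.2, 39.6 and 42.3 FPKM in siHdac4 libraries 1 to 4 and at 35.9, 44.8, 39.1 and 40.2 FPKM in siBdnf, against 45.9, 31.5, 40.6 and 38.6 FPKM in siScramble. The groups overlap, and the library labelled siHdac4 2 had the highest level of all 12. The difference between the libraries labelled siHdac4 and siScramble was 0.067 (95% interval −0.20 to 0.34; adjusted p = 0.864 in limma; two-sided p = 0.657 by exact permutation). The largest fall that this interval holds is 13.1% of FPKM + 1. A lower Hdac4 level in the libraries labelled siHdac4 was thus not detected. Without siScramble libraries 1 and 3 the difference was 0.22 (adjusted p = 0.494 in limma), and without siHdac4 library 2 it was −0.013. Bdnf, the transcript targeted in siBdnf, had 5.19 ± 0.255 FPKM in siBdnf and 5.37 ± 0.174 FPKM in siScramble (SD, n = 4 each), a difference of −0.043 (adjusted p = 0.907 in limma), so a lower level was not detected there either. The names siHdac4 and siBdnf are the labels of these libraries throughout. For Hdac4 in siBdnf minus siScramble the difference was 0.038, with a largest fall of 14.8% of FPKM + 1 in its interval.

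Hdac5, a signal-responsive class IIa deacetylase also found in neurons, fell into separate ranges. It was at 44.7, 41.8, 45.4 and 62.4 FPKM in siHdac4 and at 63.5, 59.4, 59.6 and 65.1 FPKM in siBdnf, against 39.9, 61.0, 64.3 and 61.9 FPKM in siScramble. Thus 4 libraries, 3 of siHdac4 and 1 of siScramble, lay at 39.9 to 45.4 FPKM, the other 8 lay at 59.4 to 65.1 FPKM, and none lay between. In siHdac4 minus siBdnf the difference was −0.36 (95% interval −0.69 to −0.027; unadjusted p = 0.0366 and adjusted p = 0.292 in limma; two-sided exact permutation p = 0.0857), with 3 of 4 siHdac4 libraries below every siBdnf library. In siHdac4 minus siScramble it was −0.21 (95% interval −0.55 to 0.12; limma adjusted p = 0.622). Without siScramble library 1 this value was −0.37 (limma adjusted p = 0.119), and without siScramble libraries 1 and 3 it was −0.35 (limma adjusted p = 0.273). Without siScramble libraries 3 and 4 it was −0.041 (limma adjusted p = 0.986), and over all alternatives the adjusted p ran from 0.119 to 0.986. In siBdnf minus siScramble it was 0.15 (limma adjusted p = 0.815), and −0.013 without siScramble library 1.

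Slc17a7, the vesicular glutamate transporter of excitatory neurons, was at 136, 175, 137 and 111 FPKM in siHdac4 and 99.9, 103, 102 and 93.6 FPKM in siBdnf, against 157, 124, 95.2 and 111 FPKM in siScramble. The 4 libraries lowest for Hdac5 were thus the 4 highest for Slc17a7. The sum of all 9 excitatory markers did not follow the same order, at 609 to 776 FPKM in siHdac4 and 643 to 789 FPKM in siBdnf, against 461 to 698 FPKM in siScramble. For 10308 protein-coding genes, log2(FPKM + 1) was taken minus the gene's mean over the 12 libraries. Spearman's correlation of this deviation with transcript length was −0.074, −0.083, −0.18 and −0.070 in siHdac4 libraries 1 to 4. It was −0.096 in siScramble library 1 and ran from −0.075 to 0.18 in the other 7 libraries. With the transcript's GC content the correlation was −0.038, −0.026, 0.068 and 0.064 in siHdac4 libraries 1 to 4. It was 0.19 in siScramble library 1 and ran from −0.15 to 0.10 in the other 7. The part of any of these in the Hdac5 levels was not tested.

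Hdac9, whose truncated brain form MITR represses MEF2 without a deacetylase domain, had the widest range of the abundant genes. It was at 39.2, 37.1, 53.7 and 62.8 FPKM in siHdac4 and at 47.5, 65.5, 46.8 and 54.1 FPKM in siBdnf, against 44.1, 49.6, 60.1 and 83.0 FPKM in siScramble. The groups overlap, with siScramble library 4 the highest. The difference was −0.28 (95% interval −0.74 to 0.18; limma adjusted p = 0.634) in siHdac4 minus siScramble and −0.12 (95% interval −0.57 to 0.34; limma adjusted p = 0.911) in siBdnf minus siScramble. In siHdac4 minus siBdnf it was −0.17 (limma adjusted p = 0.730). In siHdac4 minus siScramble the value was −0.44 without siScramble libraries 1 and 3, −0.11 without siScramble library 4, and positive, at 0.011, without siScramble libraries 3 and 4.

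Hdac7, known from endothelial cells and thymocytes, was near the lower limit of the test. It was at 1.20, 1.24, 1.44 and 1.24 FPKM in siHdac4 and at 0.742, 1.08, 1.09 and 1.105 FPKM in siBdnf, against 1.34, 0.713, 0.6998 and 1.47 FPKM in siScramble. Every siHdac4 library was above every siBdnf library, and siScramble spanned both. The difference in siHdac4 minus siBdnf was 0.19 (95% interval −0.093 to 0.47; adjusted p = 0.490 in limma; two-sided p = 0.029 by exact permutation, the least that 4 against 4 libraries can give). In siHdac4 minus siScramble it was 0.17 (limma adjusted p = 0.642). Slc48a1, which shares the interval, ran from 13.96 to 18.6 FPKM in siHdac4 and from 16.3 to 17.4 FPKM in siBdnf.

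Markers of other cells that can carry Hdac7 were set beside this. The summed level of 7 endothelial markers was 478 to 502 FPKM in siHdac4 and 511 to 531 FPKM in siBdnf, most of it from the overlapping locus that holds Pecam1. Without that locus the other 6 summed to 46.3 to 53.5 FPKM in siHdac4 and 46.5 to 48.7 FPKM in siBdnf. Of 8 microglial markers, 8 had a higher mean log2(FPKM + 1) in siHdac4 than in siBdnf, where 43.0% of all loci tested did. Their sums were 107 to 116 FPKM in siHdac4 and 98.1 to 103 FPKM in siBdnf. No marker of either list was at 0 in any library. Their part in the Hdac7 levels was not tested.

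Mef2a and Mef2c, the MEF2 factors most expressed here, were among the steadier loci. Mef2a was at 44.2, 52.0, 46.3 and 40.1 FPKM in siHdac4 and at 43.7, 44.1, 45.7 and 41.8 FPKM in siBdnf, against 46.9, 47.7, 41.3 and 43.5 FPKM in siScramble. Mef2c was at 49.4, 61.9, 51.8 and 51.4 FPKM in siHdac4 and at 51.6, 52.2, 50.9 and 45.03 FPKM in siBdnf, against 50.03, 45.6, 50.02 and 49.6 FPKM in siScramble. Both were highest in siHdac4 library 2, and the groups overlap for both. In siHdac4 minus siScramble the difference was 0.023 (95% interval −0.14 to 0.19; limma adjusted p = 0.930) for Mef2a. For Mef2c it was 0.13 (95% interval −0.035 to 0.29; limma adjusted p = 0.552), the smallest adjusted p of the 9 loci in that comparison, and without siHdac4 library 2 it was 0.060. In siBdnf minus siScramble the differences were −0.030 for Mef2a and 0.031 for Mef2c, and that of Mef2c was −0.023 under quantile normalization. The pooled within-group SD on the log2 scale was 0.11 for each, and 24.5% of loci tested had a lower one than Mef2a and 23.8% a lower one than Mef2c.

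The Mef2c antisense locus, to which no function is assigned in these tables, followed at low level. It was at 1.1001, 2.45, 1.54 and 1.04 FPKM in siHdac4 and at 1.03, 1.20, 1.00 and 1.31 FPKM in siBdnf, against 1.67, 0.830, 1.13 and 1.24 FPKM in siScramble. It too was highest in siHdac4 library 2 and the groups overlap. Its difference was 0.17 in siHdac4 minus siScramble (limma adjusted p = 0.712), which rests on that library, being 0.012 without it, and −0.044 in siBdnf minus siScramble (limma adjusted p = 0.963). Reads of Mef2c and of its antisense partner cannot be told apart if strand was not used in counting.

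Mef2d, the MEF2 factor with known roles in neuronal survival and synapse pruning, was the most variable of the 3. It was at 28.2, 26.7, 27.6 and 35.1 FPKM in siHdac4 and at 32.1, 36.7, 29.6 and 34.8 FPKM in siBdnf, against 22.0, 39.1, 32.6 and 46.5 FPKM in siScramble. Both the lowest and the highest library belonged to siScramble, and the groups overlap. The difference in siHdac4 minus siScramble was −0.21 (95% interval −0.61 to 0.19; limma adjusted p = 0.693), and −0.53 (limma adjusted p = 0.136) without siScramble libraries 1 and 3. It was −0.0085 (limma adjusted p = 0.996) without siScramble libraries 3 and 4, −0.40 without siScramble library 1 and −0.057 without siScramble library 4. Over all alternatives the adjusted p ran from 0.129 to 0.996. Against siBdnf, the siHdac4 libraries differed by −0.18 (95% interval −0.58 to 0.22; adjusted p = 0.659 in limma).

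Srf was the steadiest of the loci, with only 3.52% of all loci tested having a lower pooled within-group SD. It was at 5.18, 4.998, 4.94 and 5.64 FPKM in siHdac4 and at 5.29, 5.84, 5.57 and 5.67 FPKM in siBdnf, against 5.32, 5.01, 4.76 and 5.05 FPKM in siScramble. The siBdnf libraries were higher than siScramble apart from an overlap of siBdnf library 1 with siScramble library 1. The mean was 5.59 ± 0.229 FPKM in siBdnf and 5.03 ± 0.230 FPKM in siScramble (SD, n = 4 each), a difference of 0.13 (95% interval −0.015 to 0.27; adjusted p = 0.609 in limma; two-sided p = 0.0571 by exact permutation). In siHdac4 minus siScramble it was 0.036 (limma adjusted p = 0.864). The interval holds a fall of at most 7.16% of FPKM + 1 in siHdac4 and of at most 1.02% in siBdnf, both against siScramble.

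Summed over the loci of the 4 class IIa genes, the level was 139 ± 21.5 FPKM in siHdac4 and 156 ± 11.5 FPKM in siBdnf, against 156 ± 24.0 FPKM in siScramble (SD, n = 4 each). The Hdac7 and Hdac9 loci are partial, and that of Hdac9 carries other names too, so sum and shares are of loci and not of whole genes. Hdac4 made up 29.8 ± 5.39% of it in siHdac4 and 25.6 ± 1.09% in siBdnf, against 25.6 ± 6.42% in siScramble. The ratio of Hdac4 to Hdac5 was 0.866 ± 0.208 in siHdac4 and 0.648 ± 0.0796 in siBdnf, against 0.730 ± 0.284 in siScramble. It was above 1 in siHdac4 library 2 (1.15) and siScramble library 1 (1.15) and below 1 in the other 10.

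The sum over the 3 MEF2 genes was 129 ± 8.19 FPKM in siHdac4 and 127 ± 4.73 FPKM in siBdnf, against 129 ± 9.10 FPKM in siScramble. The MEF2 sum thus differed less between groups than within them, while its make-up varied by library. Mef2d was 18.5% of it in siScramble library 1 and 33.3% in siScramble library 4. The shares of Mef2a, at 39.4% and 31.1%, and of Mef2c, at 42.1% and 35.5%, were lower in library 4, as shares of a sum must offset each other. In FPKM, Mef2a was at 46.9 and 43.5 and Mef2d at 22.0 and 46.5 in those libraries. The Hdac7 locus, which touches only 4 of 25 exons, was never more than 1.03% of the class IIa sum.

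**Figure D3:**
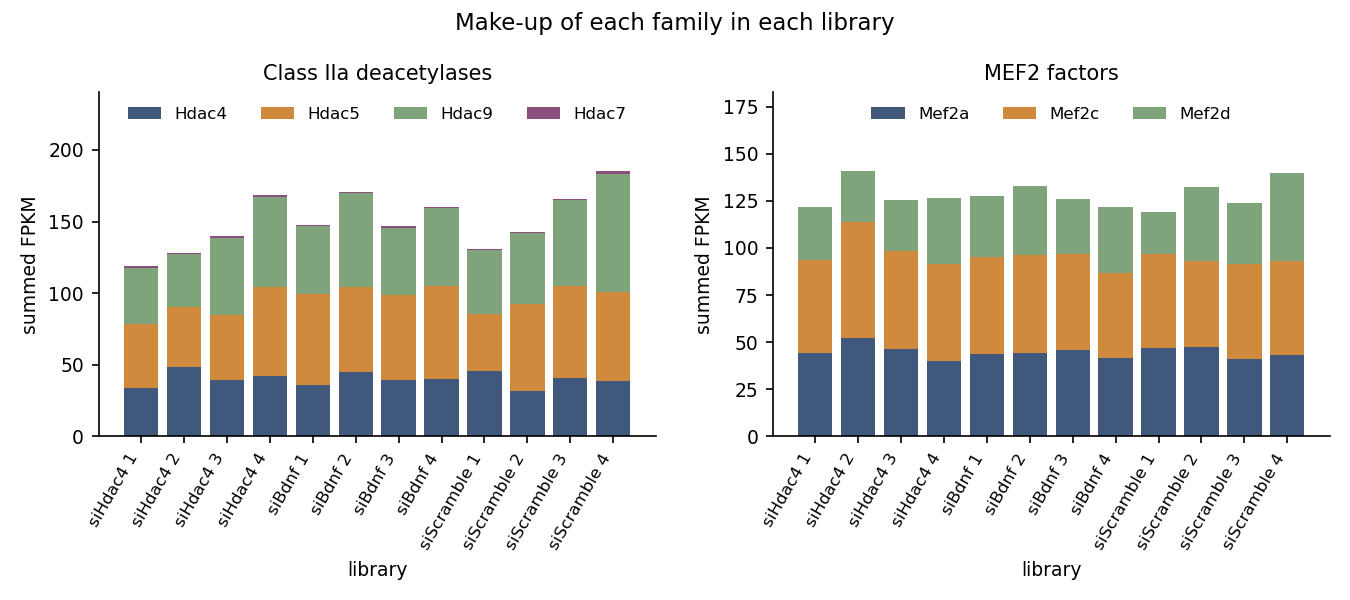
Stacked FPKM of the 4 class IIa genes (left, Hdac7 and Hdac9 at partial loci) and the 3 MEF2 genes (right) in each of the 12 libraries. The class IIa total runs from 119 FPKM in siHdac4 library 1 to 185 FPKM in siScramble library 4, and the MEF2 total from 119 to 141 FPKM.

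Over the 12 libraries the members did not vary together as a group. Correlations of log2(FPKM + 1) over the libraries, which share their library preparation and scaling, are given as a description. The highest were 0.79 between Hdac5 and Mef2d and 0.77 between Hdac9 and Mef2d, and Hdac5 with Hdac9 gave 0.63. The 4 libraries lowest for Hdac5 were also the 4 lowest for Mef2d. Mef2a ran against these genes, at −0.67 with Hdac5 and −0.61 with Hdac9. Hdac4 with Mef2c antisense gave 0.74 and Hdac4 with Mef2c 0.63, and siHdac4 library 2 was the highest library for Hdac4, Mef2a, Mef2c and Mef2c antisense. Hdac4 with Hdac5 gave −0.34. Srf was within 0.32 of 0 with every other member.

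**Figure D4:**
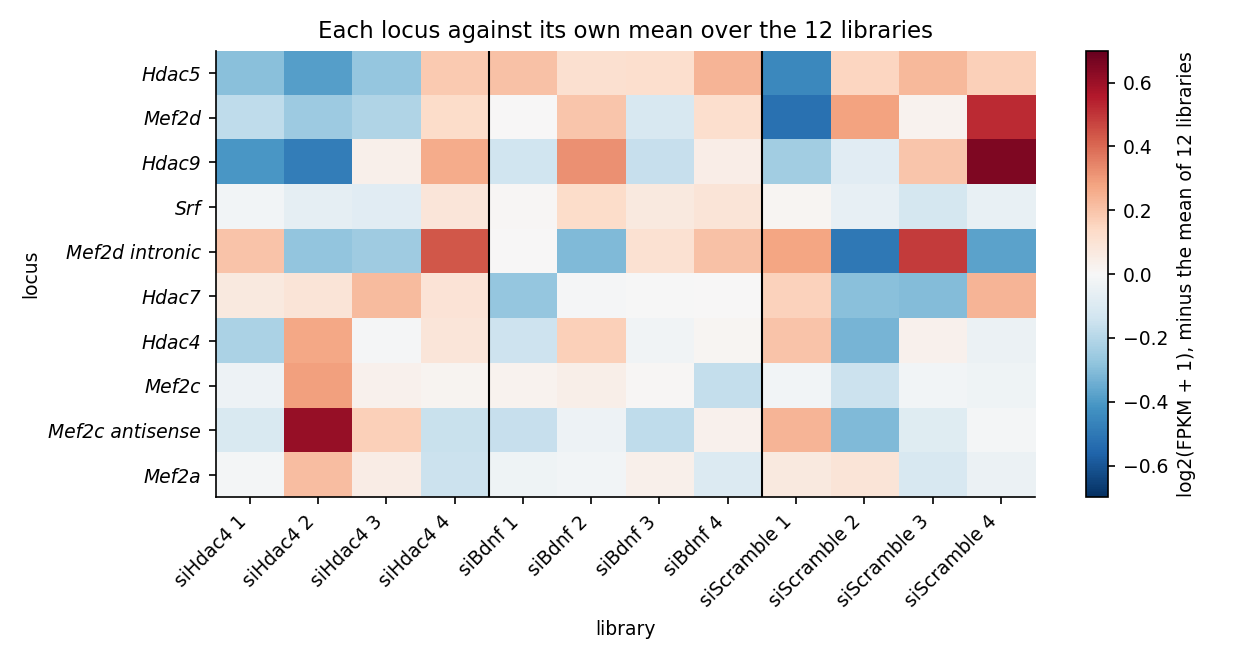
Log2(FPKM + 1) of each locus minus its mean over the 12 libraries, for the 9 loci and the intronic Mef2d locus, by library (siHdac4, siBdnf, siScramble from left to right). Hdac5 and Mef2d are both low in siHdac4 libraries 1 to 3 and in siScramble library 1, and the Hdac4, Mef2c and Mef2a loci are highest in siHdac4 library 2.

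The genes whose levels were most like each member were taken from 7922 protein-coding loci averaging 5 FPKM or more. For Hdac5 the top 3 were Kdelr1, a receptor that returns proteins to the endoplasmic reticulum (Pearson r = 0.98), Rab12, a small GTPase (0.96), and Ptpdc1 (0.95), and 47 of the candidates had r above 0.9. Kdelr1 was at 20.9, 19.0, 20.4 and 26.1 FPKM in siHdac4 and at 28.4, 27.0, 25.6 and 27.6 FPKM in siBdnf, against 19.9, 27.2, 27.6 and 28.5 FPKM in siScramble, so it showed the same split of libraries as Hdac5. For Mef2a the top gene was Kcnab2, a potassium channel subunit (0.96), followed by Timp2 and Fbxo9. For Mef2d they were Jam2 (0.93), Gsk3a and Cacng3, and for Hdac9 Slc4a4 (0.91), Kcnd3 and Akap6. Hdac4 was most like Vps72 (0.89), Slc41a2 and Trak1, Mef2c most like Recql (0.87), Rhou and Ccdc77, Hdac7 most like Pi4ka (0.88), Zmym3 and Uap1, and Srf most like Ccdc71l (0.91), C77370 and Ctdsp2. All of these are over 12 libraries, with the top of many candidates taken, and 0 candidates had r above 0.9 with Hdac4, Hdac7 or Mef2c. Rhou was at 25.9 FPKM in siHdac4 library 2, against 5.64 to 7.83 FPKM in the other libraries. With Mef2c its Pearson r was 0.85 and its Spearman correlation 0.57.

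Genes that act on or with the class IIa, MEF2 and SRF proteins, or are tied to them as targets, were read in 7 lists. The lists overlap. Arc, Egr1 and Fos stand both with the genes tied to MEF2 and with the SRF targets. Hdac3 stands both with the corepressors and with the other deacetylases. In limma 0 genes of any list were called in any comparison. The counts under an unadjusted p of 0.05 are read against the shares over all loci, 9.95% in siHdac4 minus siScramble, 8.62% in siBdnf minus siScramble and 15.6% in siHdac4 minus siBdnf. With lists of 7 to 21 genes, nothing particular to a list is drawn from them. Of 21 kinases that phosphorylate class IIa deacetylases or lie above those kinases, 3 were under an unadjusted p of 0.05 in siHdac4 minus siScramble (1 higher, 2 lower), 2 in siBdnf minus siScramble (1 higher, 1 lower) and 4 in siHdac4 minus siBdnf (1 higher, 3 lower). Camk1, a calmodulin-dependent kinase, had 21.3 ± 1.71 FPKM in siHdac4 and 17.5 ± 1.76 FPKM in siScramble (SD, n = 4 each), a difference of 0.27 (limma adjusted p = 0.454). Camk2a, the postsynaptic calmodulin-dependent kinase, was at 103, 87.8, 88.9 and 106 FPKM in siHdac4, against 97.7, 119, 180 and 155 FPKM in siScramble. Its difference was −0.48 (limma adjusted p = 0.482), and siScramble library 1 lay within the siHdac4 range. Camk2b had 240 ± 18.5 FPKM in siHdac4 and 302 ± 24.2 FPKM in siBdnf, a difference of −0.33 (limma adjusted p = 0.253). The median of the list was 0.015 in siHdac4 minus siScramble, −0.0082 in siBdnf minus siScramble and 0.0062 in siHdac4 minus siBdnf.

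Of 12 phosphatase and 14-3-3 genes, 2 were higher at an unadjusted p under 0.05 in siHdac4 minus siScramble, 3 were lower in siBdnf minus siScramble and 3 were higher in siHdac4 minus siBdnf. Ppp2cb, a catalytic subunit of protein phosphatase 2A, had 41.2 ± 3.79 FPKM in siHdac4 and 33.3 ± 2.12 FPKM in siBdnf, a difference of 0.30 (limma adjusted p = 0.223). Ppp3cb, a calcineurin catalytic subunit at an overlapping locus, had 62.8 ± 4.25 FPKM in siHdac4 and 54.3 ± 2.36 FPKM in siBdnf, and Ywhag, a 14-3-3 gene also at an overlapping locus, had 87.4 ± 4.92 FPKM in siBdnf and 98.4 ± 3.70 FPKM in siScramble. The list medians were 0.023, −0.019 and 0.045 in the same order of comparisons.

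Of 11 genes of the corepressor complexes, 1 was lower at an unadjusted p under 0.05 in siHdac4 minus siScramble, 0 in siBdnf minus siScramble, and 1 was higher and 1 lower in siHdac4 minus siBdnf. Hdac3, the active enzyme of the complex, averaged 30.9 FPKM in siHdac4 and 31.3 FPKM in siBdnf, against 31.4 FPKM in siScramble. Cbx5, the heterochromatin protein HP1 alpha, had 56.5 ± 1.91 FPKM in siHdac4 and 62.6 ± 1.98 FPKM in siBdnf, a difference of −0.15 (limma adjusted p = 0.263). Ctbp1, a corepressor that binds MITR-type proteins, had 40.5 ± 4.31 FPKM in siHdac4 and 33.2 ± 1.53 FPKM in siBdnf, and Tbl1x, a subunit of the NCoR complex, 9.41 ± 0.371 FPKM in siHdac4 and 10.8 ± 0.635 FPKM in siScramble. The list medians were −0.040, −0.0015 and −0.020.

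Of 13 activity-dependent and synaptic genes tied to MEF2, 1 was lower at an unadjusted p under 0.05 in siHdac4 minus siScramble, 0 in siBdnf minus siScramble and 1 was lower in siHdac4 minus siBdnf. Jun, an immediate early gene with a MEF2 site in its promoter, had 12.5 ± 0.647 FPKM in siHdac4 and 14.8 ± 0.232 FPKM in siBdnf, a difference of −0.22 (limma adjusted p = 0.239). Homer1, a postsynaptic scaffold, had 21.7 ± 1.27 FPKM in siBdnf and 19.9 ± 1.31 FPKM in siScramble. The list medians were −0.0020, −0.029 and −0.066.

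Of the SRF cofactors, 7 of 10 names had a tested locus, partly because older and newer symbols of a gene were both listed. Mkl1, the actin-sensing cofactor MRTF-A, was the 1 gene under an unadjusted p of 0.05 in siHdac4 minus siScramble, with 12.01 ± 1.302 FPKM in siHdac4 and 15.5 ± 2.31 FPKM in siScramble (difference −0.33; limma adjusted p = 0.482). Elk1, an ETS partner of SRF at an overlapping locus, was the 1 gene in siBdnf minus siScramble, with 13.5 ± 0.515 FPKM in siBdnf and 12.1 ± 0.839 FPKM in siScramble, and 0 genes were in siHdac4 minus siBdnf. Mkl2, the related MRTF-B, had 30.5 ± 2.42 FPKM in siHdac4 and 34.7 ± 3.15 FPKM in siScramble. The list medians were −0.13, −0.035 and −0.080.

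Of 16 SRF targets tested, 0 were under an unadjusted p of 0.05 in siHdac4 minus siScramble, 1 was higher in siBdnf minus siScramble and 1 lower in siHdac4 minus siBdnf. Srf itself is among these 16. Acta2, smooth muscle actin, had 3.63 ± 0.755 FPKM in siHdac4 and 5.19 ± 1.09 FPKM in siBdnf, a difference of −0.42 (limma adjusted p = 0.267). Tpm1, a tropomyosin, had 76.1 ± 2.27 FPKM in siBdnf and 69.6 ± 4.99 FPKM in siScramble, and Actg1, cytoplasmic gamma actin, 49.01 ± 6.71 FPKM in siHdac4 and 39.1 ± 2.61 FPKM in siBdnf. Acta2 also marks smooth muscle, and the summed level of 6 mural and smooth muscle markers, Acta2 among them, was 72.3 to 87.4 FPKM in siHdac4 and 78.1 to 83.3 FPKM in siBdnf. Most of that sum came from Rgs5 and from an overlapping locus that holds Myh11. Of the 6 markers, 2 had a higher and 4 a lower mean log2(FPKM + 1) in siHdac4 than in siBdnf. The part of mural and smooth muscle cells in these values was not tested. The list medians were 0.052, 0.067 and −0.035.

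The last list held 7 deacetylases outside class IIa, all tested, and Mef2b, which had no tested locus. Of the 7, 1 was higher at an unadjusted p under 0.05 in siHdac4 minus siScramble, 1 higher and 1 lower in siBdnf minus siScramble and 0 in siHdac4 minus siBdnf. Hdac2, a class I enzyme with known roles in memory, had 61.2 ± 2.69 FPKM in siBdnf and 53.9 ± 5.33 FPKM in siScramble, a difference of 0.19 (limma adjusted p = 0.523). Hdac1, its close relative, had 6.61 ± 0.199 FPKM in siBdnf and 8.39 ± 1.35 FPKM in siScramble, a difference of −0.29 (limma adjusted p = 0.524). Hdac6, the cytoplasmic tubulin deacetylase, had 16.5 ± 1.82 FPKM in siHdac4 and 14.3 ± 1.33 FPKM in siBdnf. The list medians were 0.043, −0.0013 and 0.025.

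**Figure D5:**
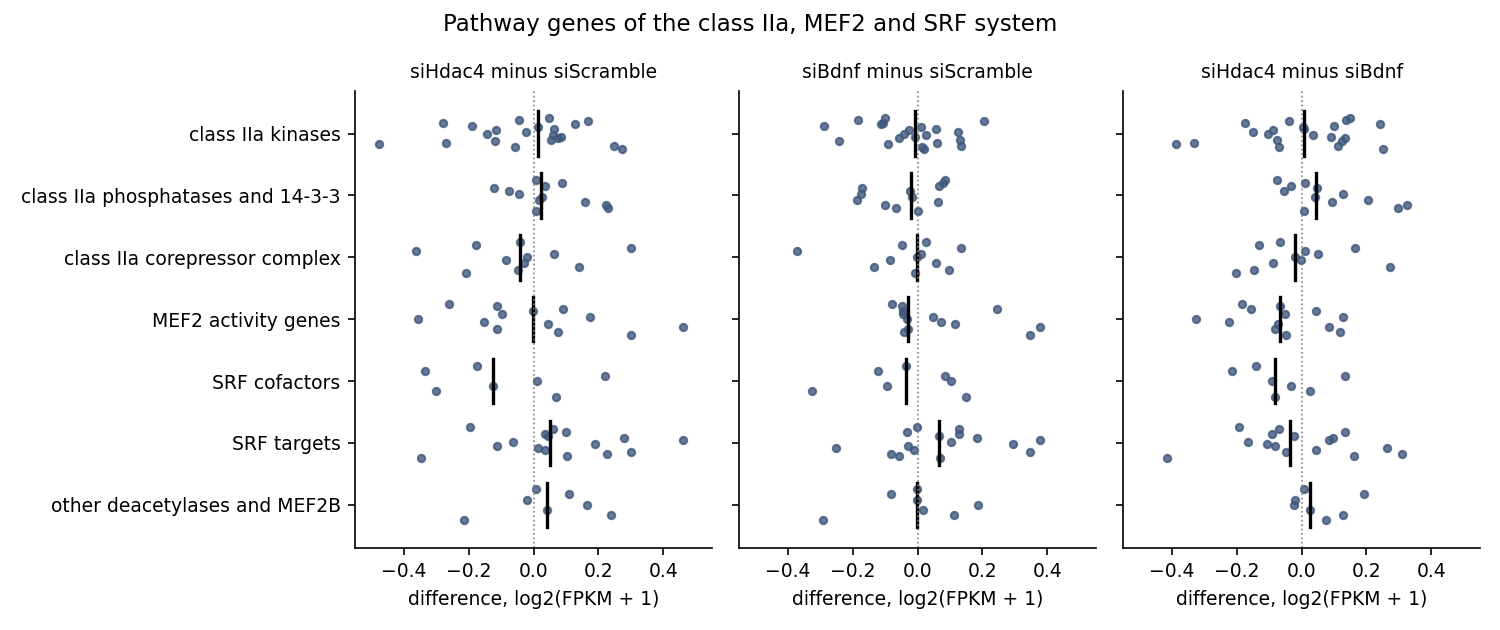
Difference of each tested gene of the 7 lists on the log2(FPKM + 1) scale, 1 point per gene, with the list median as a black bar, for the 3 comparisons. Points of every list lie on both sides of 0, within −0.48 and 0.46, and 0 genes were called.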

How the data were processed

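Poly-A selected directional libraries were made from TRIzol RNA, per the labels' protocols. TopHat2 2.0.9, Cufflinks and Cuffdiff are named in the submitters' processing notes, with no version for the last pair, and build, annotation and scaling between libraries are not given in the sources used here. Deposited by the authors were FPKM values per library and locus, with their own log2 fold change, p-value and FDR against siScramble, in 2 tables joined by locus.

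Since FPKM is no count, the deposited values were tested as log2(FPKM + 1) with limma 3.58.1 (R 4.3.3) and a variance trend, keeping loci that averaged 1 FPKM or more. A fold change on this scale understates that of low loci. Left out were 48 loci listed at 0 through a whole group, leaving 18339. The 3 groups shared 1 fit without covariates, p was adjusted by Benjamini-Hochberg over all loci, and every adjusted p quoted is limma's unless the authors' table is named. Single members also had an exact permutation test (scipy 1.17.1). Tried besides were a pseudocount of 0.1, a filter at 5 FPKM and no filter, quantile normalization, median scaling, 2 groups alone, a replicate block, zero loci kept, protein-coding loci only, and libraries left out. The fit was tested on simulated data. Tables and figures used Python 3.11.15, pandas 2.3.3, numpy 2.4.6 and matplotlib 3.10.9.

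Members, lists and alternatives were chosen with earlier results of these data known. Named genes are the members, up to 3 genes of smallest p in each list, and the 3 protein-coding loci most like each member (averaging 5 FPKM or more, predicted and Rik genes left out). Bdnf, Hdac3, Mef2b, Neurod6, Slc17a7 and Slc48a1 were named after their values were seen. A gene and some sequences that these rules would name are not reported here. Depth is unknown, because read totals are not in the tables.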

Additional observations from a re-analysis of the deposited data

Results flagged for a closer look

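Values that stood far from the other 3 libraries of their group were looked for in 63 sets of 4 libraries, and 5 were found, while chance marks about 1 in 20 sets. Hdac5 was at 39.9 FPKM in siScramble replicate 1, against 61.0 to 64.3 FPKM in the other siScramble libraries. Summed choroid plexus markers were at 857 FPKM in that library and at 2128 FPKM in siScramble replicate 3, where Hdac5 was at 64.3 FPKM. In siHdac4 replicates 1 to 3, also low for Hdac5, these markers were at 33.3, 42.3 and 72.9 FPKM. Their part in the Hdac5 levels was not tested. Hdac7 was at 1.44 FPKM in siHdac4 replicate 3, against 1.20 to 1.24 FPKM in the other siHdac4 libraries. It was at 0.742 FPKM in siBdnf replicate 1, against 1.08 to 1.105 FPKM in the other siBdnf libraries. Mef2c was at 45.6 FPKM in siScramble replicate 2, against 49.6 to 50.03 FPKM in the other siScramble libraries. Mef2a made up 31.7% of the MEF2 sum in siHdac4 replicate 4, against 36.3 to 36.98% in the other siHdac4 libraries.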

How the results depend on the processing

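None of the 9 loci was called under any of 11 alternatives or 12 fits that left out a library, and the smallest adjusted p was 0.119. Of 609 single values, 27 turned in sign, over 12 of the 27 differences. Without siScramble libraries 3 and 4, siHdac4 minus siScramble was 0.011 for Hdac9 and −0.054 for Mef2a, and siBdnf minus siScramble was 0.18 for Hdac9 and 0.17 for Mef2d. Without siScramble libraries 1 and 3, Mef2a was at −0.00087 in siHdac4 and Mef2c antisense at 0.075 in siBdnf, both minus siScramble. Under quantile normalization Hdac4 was at −0.0099 and Mef2c at −0.023 in siBdnf minus siScramble. Leaving out single libraries turned Hdac4 (−0.031 to 0.15) and Mef2a (−0.040 to 0.081) in siHdac4 minus siScramble.

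The number of loci called among all tested depended on the settings. In siHdac4 minus siScramble it was 1, and 48 with loci at 0 kept, 7 without siScramble libraries 1 and 3, and 0 without libraries 3 and 4, with 2 groups alone, with protein-coding loci only or with the replicate block. In siBdnf minus siScramble it was 0, and 51 with loci at 0 kept, 1 with 2 groups alone, 1 without libraries 1 and 3 and 181 without libraries 3 and 4. In siHdac4 minus siBdnf it was 1, and 5 with loci at 0 kept, 167 with 2 groups alone, 4 without libraries 1 and 3, 52 without libraries 3 and 4, 3 with protein-coding loci only, 0 at 5 FPKM or more and 0 with the replicate block. Leaving out 1 library gave 0 to 36, 0 to 1 and 0 to 9, the 36 and the 9 without siScramble replicate 1. The cause was not tested.

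Leaving out single libraries also turned values in siBdnf minus siScramble, which ran from −0.059 to 0.12 for Hdac4, −0.013 to 0.21 for Hdac5, −0.10 to 0.077 for Hdac7, −0.24 to 0.059 for Hdac9, −0.00066 to 0.079 for Mef2c, −0.13 to 0.050 for Mef2c antisense and −0.23 to 0.12 for Mef2d. In siHdac4 minus siBdnf they ran from −0.051 to 0.11 for Hdac4 and −0.010 to 0.11 for Mef2a. Under quantile normalization list medians moved as well. For the kinases they were 0.040 in siHdac4 minus siScramble, −0.045 in siBdnf minus siScramble and 0.075 in siHdac4 minus siBdnf, and for the phosphatases and 14-3-3 genes 0.074, −0.11 and 0.20 in that order, while the corepressors were at 0.034 in siHdac4 minus siBdnf. At 5 FPKM or more, the median in siHdac4 minus siScramble was 0.048 for the kinases and −0.057 for the SRF cofactors. For the list of activity-dependent and synaptic genes tied to MEF2 it was 0.060 there and 0.095 in siBdnf minus siScramble. Without siScramble libraries 3 and 4, the SRF cofactors were at −0.019 and the SRF targets at −0.076 in siHdac4 minus siScramble, and the SRF targets at −0.035 in siBdnf minus siScramble. Without siScramble libraries 1 and 3 the corepressors were at −0.091 in siHdac4 minus siScramble. Deviations of same-numbered libraries correlated at −0.0756 to 0.242, and those of differently numbered libraries at −0.381 to 0.291. The mean for same numbers was 0.044 in siHdac4 and siScramble, 0.059 in siBdnf and siScramble and 0.027 in siHdac4 and siBdnf. For different numbers it was −0.015, −0.019 and −0.0090 in that order. The labels do not say that the numbers pair libraries, and these values do not settle it.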

Other observations

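A locus inside Mef2d, annotated as intronic and so outside the rule, was at 6.74, 4.58, 4.67 and 8.13 FPKM in siHdac4 and at 5.77, 4.44, 6.27 and 6.79 FPKM in siBdnf, against 7.17, 3.77, 8.48 and 4.204 FPKM in siScramble. It did not follow the Mef2d locus over the 12 libraries (Pearson r = −0.37, a description). The 2 siScramble libraries highest for Mef2d, 2 and 4, were the 2 lowest libraries of all 12 for the intronic locus. Its difference was 0.055 in siHdac4 minus siScramble (95% interval −0.46 to 0.57; limma adjusted p = 0.947).

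The interval of Hdac9 is also listed for 13 unnamed lincRNA loci, with means of 1.497 to 3.98 FPKM over the 12 libraries, and that of Srf for Gm26904, with a mean of 0.994 FPKM.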
